A study of Drosophila melanogaster with 15 samples.

Results

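The 6 genes described here are the core of the Hippo pathway of Drosophila melanogaster: the kinase genes hpo and wts, the genes of their partner proteins sav and mats, the coactivator gene yki and the DNA-binding partner gene sd. They were found by symbol in the deposited table of comparisons, and all 6 were among the 14671 genes of the deposited expression table. Messenger RNA had been sequenced from third-instar eye imaginal discs, the larval tissue that forms the adult eye. There were 5 groups of 3 libraries. The first carried GMR-Gal4, UAS-eGFP and UAS-MonosigaYAP (Monosiga Yap, from a choanoflagellate). The second carried GMR-Gal4, UAS-eGFP and UAS-MonosigaYAP+HumanTBD, in which the protein is joined to a human TEAD-binding domain (Monosiga Yap-TBD). The third carried GMR-Gal4, UAS-eGFP and UAS-DrosophilaYKI S168A (Yki S168A), and the fourth GMR-Gal4, UAS-eGFP and UAS-TrichoplaxYAP S81A (Trichoplax Yap S81A, from a placozoan). The control carried GMR-Gal4 and UAS-eGFP alone, so every group had the driver and eGFP. GMR-Gal4 is active in the differentiating cells behind the morphogenetic furrow, and this GFP-positive domain was cut from 25 to 30 discs for each library, so a library is a pool of tissue and not 1 animal. Per the labels, eyes were normal in the control, Monosiga Yap gave differentiation defects only, and the other 3 constructs also gave ectopic proliferation, of a middle degree with Yki S168A and strong with Monosiga Yap-TBD and Trichoplax Yap S81A.

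In the pathway, Hpo, bound to the scaffold Sav, phosphorylates Wts and its activator Mats. Wts then phosphorylates Yki, which is held in the cytoplasm by binding to a 14-3-3 protein. Yki that escapes this enters the nucleus and, with the TEAD-family protein Sd, turns on genes of growth, cell cycle entry and survival. In the eye disc, loss of the kinases or excess Yki gives overgrowth. S168 of Yki is the main site that Wts phosphorylates, and its change to alanine makes Yki less responsive to Wts. The labels give S81A as the substitution in the Trichoplax protein.

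Estimated depth lay between 12.1 and 20.6 M fragments a library. At the lowest depth, 20 FPKM (fragments relative to the length of the transcript and the size of the library) corresponds to about 435 fragments for a 2000-base transcript. Each of the 6 eye disc marker genes reached 1 FPKM in at least 1 library of every group. Of these, eya, gl and so were called lower with Monosiga Yap-TBD, gl with Yki S168A and eya with Trichoplax Yap S81A. The summed level of 5 photoreceptor markers was 45.8 to 50.9 FPKM in the Monosiga Yap-TBD libraries, 71.1 to 87.5 with Yki S168A and 63.3 to 84.7 with Trichoplax Yap S81A, against 206 to 250 in the control. Of these 5, limma called 4, 4 and 3 lower. Over all tested genes, 12%, 6.52% and 6.09% were called lower with these constructs, and 12.6%, 5.42% and 6.09% higher. The summed level of 4 genes of proliferating cells was 499 to 549, 511 to 547 and 512 to 648 FPKM with the same constructs, against 306 to 323 in the control; mus209 and RnrL were called higher with each of the 3, and stg was called lower with Monosiga Yap-TBD. Markers of undifferentiated eye cells (hth and tsh, summed) were at 136 to 205 FPKM with Monosiga Yap-TBD, 229 to 295 with Yki S168A and 196 to 202 with Trichoplax Yap S81A, against 138 to 145 FPKM in the control, and hth was called higher with Yki S168A and Trichoplax Yap S81A. The means of tsh went the other way, at 29.1, 30.3 and 26.2 FPKM with these constructs, against 35.8 FPKM in the control. None of these tsh differences was called, so the higher sums come from hth. The 3 glia markers summed to 26.3 to 28.9, 20.3 to 31.7 and 27.2 to 34.3 FPKM, against 32.2 to 54.0 FPKM in the control, with repo called lower with Monosiga Yap-TBD and Yki S168A. Of 4 hemocyte markers, Pxn was called lower with Yki S168A (summed level 7.67 to 13.5, against 18.8 to 32.7 FPKM in the control). Of 3 brain markers, ap and tll were too low to be tested. The third, Dll, is also expressed in the antenna and so does not by itself mark brain tissue. It was called higher with Yki S168A and Trichoplax Yap S81A. The summed level of the 3 was at most 10.2 FPKM in any library. None of the 3 tested muscle markers was called (Mhc was too low to be tested), and Monosiga Yap had no call in any of these lists. In these bulk samples, fewer cells of a type and less RNA per cell cannot be told apart, and the part of the cell makeup in the values below was not tested. Trichoplax Yap S81A replicate 1 held 4100 FPKM of 3 fat body markers summed, against at most 33.3 FPKM in each of the other libraries; without it, limma still called 2 of the 6 genes with Trichoplax Yap S81A against the control (wts and sd, below), and the others were at -0.13 (hpo, limma adjusted p = 0.614), -0.06 (sav, 0.871), -0.30 (mats, 0.316) and -0.21 (yki, 0.562) on the log2 scale. The count of all tested genes called in that comparison was then 882, against 1122 with it.

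The gene yki (FBgn0034970; 2R 19953498 to 19956008 in dm3, minus strand) checks the labels. The Yki S168A libraries had 696, 706 and 408 FPKM, against 86.2, 89.0 and 80.0 FPKM in the control. These groups lay far apart, and replicate 3 was the lowest of the Yki S168A libraries. The mean was 7.09-fold higher (log2 fold change 2.77, SE 0.17, limma adjusted p = 3.33e-07). The deposited values do not separate fragments of the transgene from those of the endogenous gene. With the foreign constructs yki stood at 87.2, 70.8 and 81.4 FPKM (Monosiga Yap), 77.5, 70.5 and 66.8 FPKM (Monosiga Yap-TBD) and 79.0, 72.5 and 74.5 FPKM (Trichoplax Yap S81A). All Monosiga Yap-TBD and Trichoplax Yap S81A libraries were below all control libraries, yet neither difference passed the test. The log2 fold changes were -0.25 with Monosiga Yap-TBD (95% interval -0.61 to 0.12, limma adjusted p = 0.331) and -0.17 with Trichoplax Yap S81A (-0.54 to 0.19, adjusted p = 0.586).

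**Figure D1:**
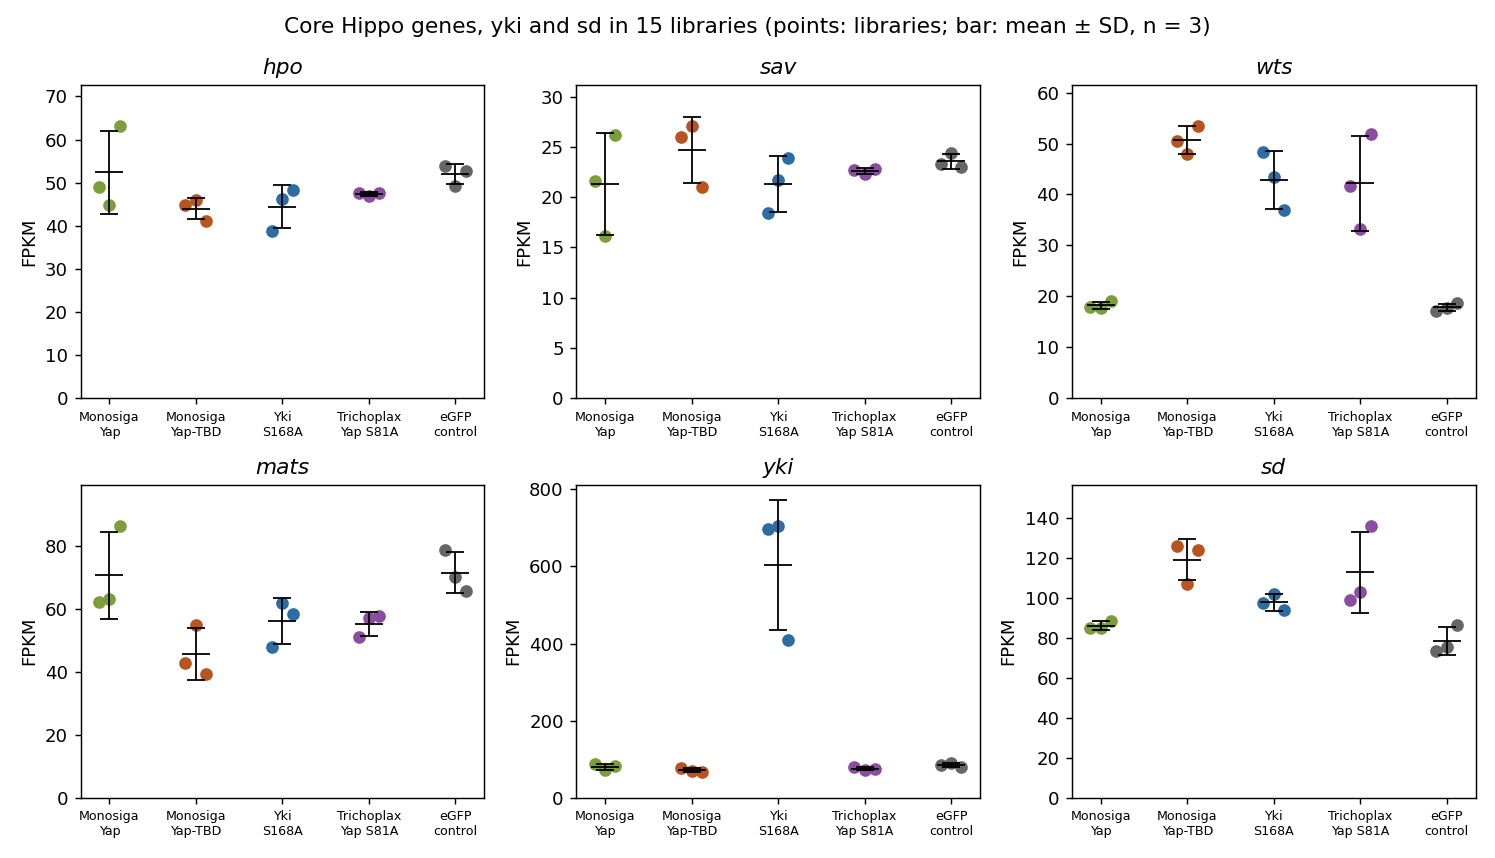
FPKM (y axis, from 0) of hpo, sav, wts, mats, yki and sd by group (x axis) in 15 libraries; points are libraries and bars the mean ± SD of 3. The gene wts is at 33.2 to 53.5 FPKM with the 3 constructs that induce proliferation and at 17.1 to 19.0 with Monosiga Yap and in the control; yki stands out with Yki S168A alone.

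Of the 4 genes of the kinase cassette, wts (FBgn0011739; 3R 26615379 to 26632341 in dm3, minus strand), which encodes the kinase that acts directly on Yki, differed most between groups. It stood at 50.5, 48.0 and 53.5 FPKM with Monosiga Yap-TBD, 48.3, 43.5 and 36.9 FPKM with Yki S168A, and 41.6, 33.2 and 51.8 FPKM with Trichoplax Yap S81A, against 17.1, 17.7 and 18.6 FPKM in the control. Every library of these 3 groups was above every control library. The level rose 2.84-fold with Monosiga Yap-TBD (log2 fold change 1.46, SE 0.14, limma adjusted p = 5.37e-06), 2.41-fold with Yki S168A (1.22, adjusted p = 0.000126) and 2.37-fold with Trichoplax Yap S81A (1.18, adjusted p = 0.000109). Among all tested genes, 97.8%, 98.4% and 97.8% had a log2 fold change at or below that of wts in these comparisons, which share the control libraries. Without Trichoplax Yap S81A replicate 1 its log2 fold change was also 1.18 (limma adjusted p = 0.00068).

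With Monosiga Yap, wts was at 17.9, 17.7 and 19.0 FPKM. The groups overlapped, and the log2 fold change against the control was 0.03 (95% interval -0.28 to 0.34, limma adjusted p = 1).

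The upstream kinase gene hpo (FBgn0261456; 2R 15381801 to 15384372, minus strand) was at 44.7, 45.9 and 41.2 FPKM with Monosiga Yap-TBD, 38.7, 46.3 and 48.3 FPKM with Yki S168A and 47.7, 46.9 and 47.5 FPKM with Trichoplax Yap S81A, against 53.8, 49.3 and 52.7 FPKM in the control. All 9 of these libraries were below the 3 control libraries, by a small margin. No difference passed the test, with log2 fold changes of -0.24 (95% interval -0.50 to 0.03), -0.23 (-0.49 to 0.04) and -0.13 (-0.40 to 0.14) and limma adjusted p = 0.193, 0.282 and 0.576. Scaling the libraries to the same 75th percentile gave hpo a call with Monosiga Yap-TBD (-0.32, limma adjusted p = 0.0222). Array weights did too (limma adjusted p = 0.0232), within a range of 0.0222 to 0.359 over its alternatives. The estimation of array weights stopped before it converged, here and wherever they are used below. Monosiga Yap libraries ranged from 44.9 to 63.2 FPKM and overlapped the control (limma adjusted p = 1).

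The scaffold gene sav (FBgn0053193; 3R 18884329 to 18886991, minus strand) had a mean of 21.3 ± 5.04 FPKM with Monosiga Yap, 24.7 ± 3.25 with Monosiga Yap-TBD, 21.3 ± 2.76 with Yki S168A and 22.6 ± 0.237 with Trichoplax Yap S81A, against 23.6 ± 0.758 in the control (SD, n = 3). The Trichoplax Yap S81A libraries were all just below the control libraries, and the other groups overlapped the control. Its log2 fold changes over the control lay between -0.16 and 0.06, with 95% intervals that together spanned -0.50 to 0.40 and limma adjusted p between 0.634 and 1.

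The gene mats (FBgn0038965; 3R 18246877 to 18248568, plus strand) encodes the Mob-family protein that Wts needs for activity, the kinase that wts encodes. With Monosiga Yap-TBD it was at 42.8, 55.1 and 39.5 FPKM, against 78.7, 70.1 and 65.9 FPKM in the control. The groups did not overlap, and the level fell to 0.640 of the control (log2 fold change -0.64, SE 0.15, limma adjusted p = 0.0075; adjusted p from 3.89e-05 to 0.0366 over its alternatives). Yki S168A libraries were at 48.1, 62.1 and 58.5 FPKM and those of Trichoplax Yap S81A at 51.0, 57.3 and 57.8 FPKM, all below the control libraries. Neither passed the test (log2 fold change -0.35 with adjusted p = 0.177 and -0.36 with adjusted p = 0.156, limma). The Trichoplax Yap S81A difference was called after scaling to the 75th percentile (limma adjusted p = 0.0306) and with array weights (0.0188), within a range of 0.0188 to 0.362, and the Yki S168A difference with array weights alone (0.0396, range 0.0396 to 0.432). Monosiga Yap libraries, at 62.4, 63.2 and 86.6 FPKM, overlapped the control (limma adjusted p = 1).

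Scalloped (sd; FBgn0003345; X 15700276 to 15719755, plus strand) encodes the TEAD protein through which Yki reaches DNA. With Monosiga Yap-TBD its libraries were at 126, 107 and 124 FPKM, against 73.5, 75.2 and 86.1 FPKM in the control. The groups were apart and sd rose 1.52-fold (log2 fold change 0.60, SE 0.12, limma adjusted p = 0.00229). Trichoplax Yap S81A libraries were at 99.0, 103 and 136 FPKM, of which replicate 3 was the highest, and sd rose 1.44-fold (0.51, limma adjusted p = 0.0127; 0.59 and 0.0109 without replicate 1). That call ended without Trichoplax Yap S81A replicate 3 (0.37, limma adjusted p = 0.0505), without control replicate 1 (0.47, 0.0574) or 2 (0.48, 0.0501), and with only the compared groups in the fit (0.51, 0.0525); its adjusted p ranged from 0.00124 to 0.0574. Yki S168A libraries, at 97.2, 102 and 93.8 FPKM, were also all above the control, with a log2 fold change of 0.32 (95% interval 0.06 to 0.58, limma adjusted p = 0.111). This was called when Trichoplax Yap S81A replicate 3 was left out of the fit (0.32, adjusted p = 0.0441) and with array weights (0.40, 0.00111), within a range of 0.00111 to 0.273. Monosiga Yap, at 84.7, 84.9 and 88.5 FPKM, overlapped the control (log2 fold change 0.14, limma adjusted p = 1). One gene on the same strand, CG8509, lies within the sd locus, with a mean of 0.144 FPKM over all libraries.

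The authors' deposited table gives sd differently from their FPKM table. For sd, the authors' deposited table lists a log ratio of 0 with p = 1 for Monosiga Yap-TBD, Yki S168A and Trichoplax Yap S81A, and a mean level of -2.89 on its log2 scale. The mean of log2 FPKM of sd is 6.6, and the natural log of the ratio of mean FPKM is 0.42, 0.22 and 0.36 for these constructs. For Monosiga Yap, the authors' deposited table gives sd 0.0983, beside 0.09 from FPKM. The same entry of 0 and p = 1 for all 3 constructs is found in the authors' deposited table for 169 of 7213 genes with a mean of at least 5 FPKM. For wts, the authors' deposited table gives natural log ratios of 1.08, 0.907 and 0.908 with the same constructs, beside 1.05, 0.88 and 0.86 from mean FPKM.

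**Figure D2:**
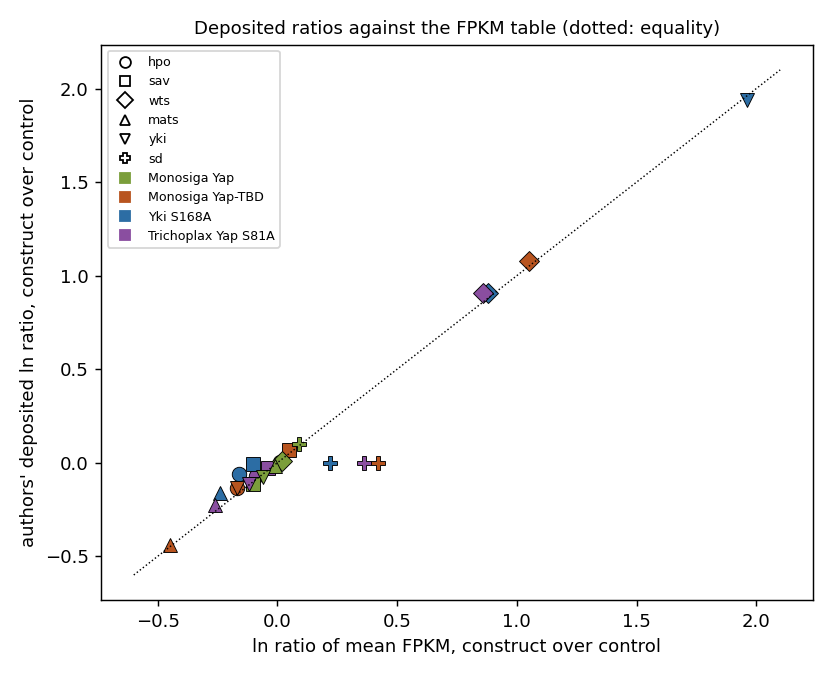
Natural log ratio of each construct over the control in the authors' deposited table (y axis) against the natural log of the ratio of mean FPKM (x axis) for the 6 genes (symbols) and 4 constructs (colours); the dotted line is equality. Points of sd for Monosiga Yap-TBD, Yki S168A and Trichoplax Yap S81A lie at 0 on the y axis and at 0.42, 0.22 and 0.36 on the x axis.

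Counted by comparison, limma called 3 of the 6 genes with Monosiga Yap-TBD against the control (wts and sd higher, mats lower), where 24.6% of the 9213 tested genes were called in either direction. With Yki S168A it called 2 (yki and wts, both higher), against 11.9% of tested genes. With Trichoplax Yap S81A it called 2 (wts and sd, both higher), against 12.2% of tested genes. With Monosiga Yap it called 0 of 6, and and 0 of 6 had an unadjusted limma p under 0.05 (the lowest was 0.271, for sd); over all tested genes, 0.326% were called and 4.94% had an unadjusted p under 0.05. By the plain order of libraries, Monosiga Yap-TBD had 2 of the 6 genes above all control libraries and 3 below (hpo, mats and yki), against 23.2% and 20.1% of tested genes. With Yki S168A these were 3 (wts, yki and sd) and 2 (hpo and mats), against 16.6% and 16.6%, and with Trichoplax Yap S81A 2 (wts and sd) and 4 (hpo, sav, mats and yki), against 19.6% and 15.7%. The median log2 fold change of all tested genes was between -0.022 and 0.04 in these 4 comparisons.

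**Figure D3:**
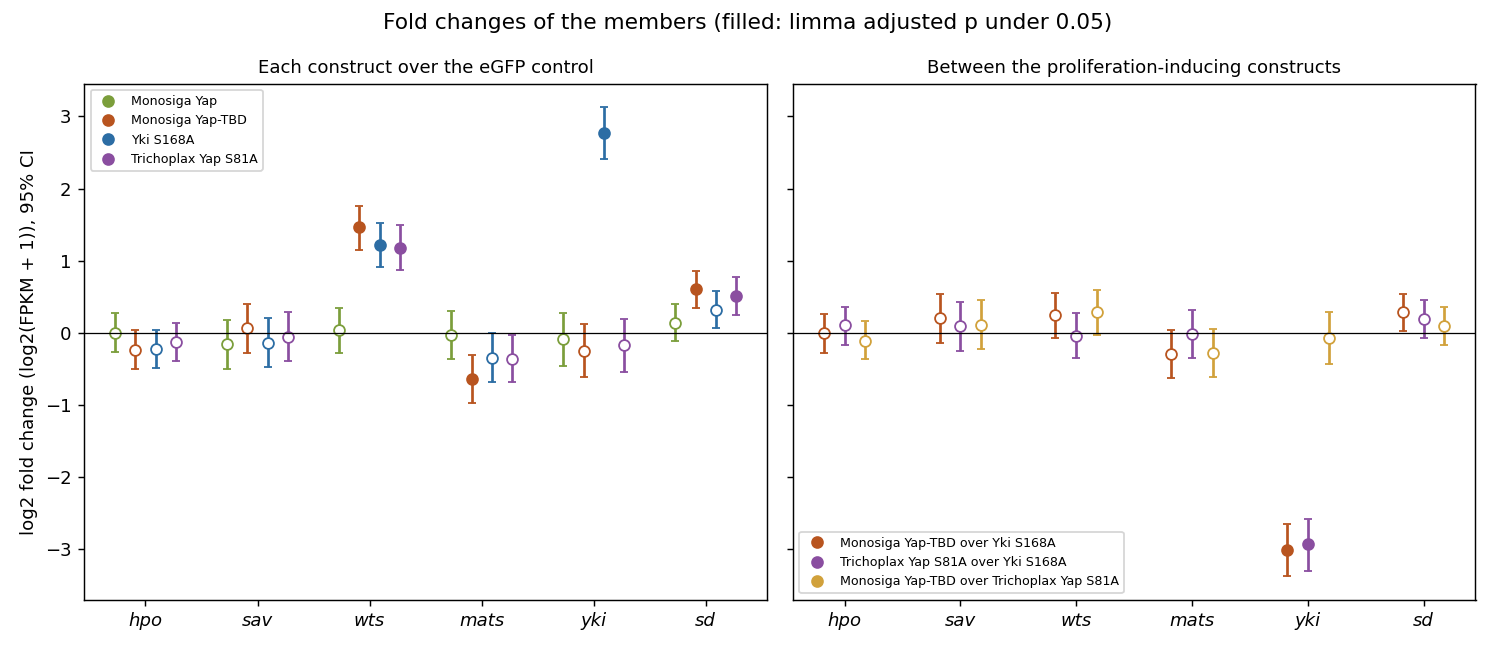
Log2 fold change on the log2(FPKM + 1) scale with its 95% confidence interval (y axis) for each of the 6 genes (x axis), for each construct over the control (left) and between the constructs that induce proliferation (right); filled points have a limma adjusted p under 0.05. On the left wts is filled for 3 constructs and mats for Monosiga Yap-TBD alone; on the right only yki is filled, in the comparisons with Yki S168A.

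Monosiga Yap-TBD was also set against Monosiga Yap, the protein without the TEAD-binding domain, with the same Monosiga Yap-TBD libraries as above. The part of the domain, of transgene level and of cell makeup in these differences was not tested. Of the 6 genes 3 were called, wts, sd and mats, where 26.5% of tested genes were. The level of wts rose 2.78-fold, with libraries at 48.0 to 53.5 FPKM with the domain, against 17.7 to 19.0 FPKM without it (limma adjusted p = 6.89e-06). Expression of sd rose 1.38-fold (119 ± 10.4 against 86.0 ± 2.1 FPKM, SD, n = 3; limma adjusted p = 0.0116); leaving out Monosiga Yap-TBD replicate 1 ended that call (adjusted p = 0.0508; range 0.000617 to 0.0508). Expression of mats fell to 0.647 (45.8 ± 8.19 against 70.7 ± 13.7 FPKM, limma adjusted p = 0.00916), and the call ended with only these groups in the fit (0.0553; range 0.000867 to 0.0553). The genes hpo, sav and yki had log2 fold changes of -0.23, 0.22 and -0.15 (limma adjusted p = 0.192, 0.347 and 0.575). For hpo, scaling to the 75th percentile gave a call (-0.32, limma adjusted p = 0.0229; range 0.0229 to 0.556).

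Yki S168A and Trichoplax Yap S81A were also set against Monosiga Yap. Expression of wts rose 2.36-fold with Yki S168A and 2.32-fold with Trichoplax Yap S81A (limma adjusted p = 0.00018 and 0.000145). In the first of these, yki was also called (7.56-fold higher, adjusted p = 2.99e-07), so 2 of the 6 genes were called, where 11.7% of tested genes were. In the second, wts was the 1 gene called, where 12.7% of tested genes were; sd was at 113 ± 20.3 against 86.0 ± 2.1 FPKM (limma adjusted p = 0.0593), and it was called without Trichoplax Yap S81A replicate 1 (0.46, adjusted p = 0.0405) and with array weights (0.30, 0.0473; range 0.0405 to 0.234). For mats, scaling to the 75th percentile gave a call in the second comparison (-0.41, limma adjusted p = 0.0418; range 0.0418 to 0.419).

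Between the 3 constructs that induce proliferation, yki was the only one of the 6 called, lower with Monosiga Yap-TBD and with Trichoplax Yap S81A than with Yki S168A (0.119 and 0.125 of its level, limma adjusted p = 9.31e-08 and 4.51e-07). Of all tested genes, 7.13% were called between Monosiga Yap-TBD and Yki S168A, 0.51% between Trichoplax Yap S81A and Yki S168A, and 6.32% between Monosiga Yap-TBD and Trichoplax Yap S81A. For wts, Monosiga Yap-TBD over Yki S168A had a log2 fold change of 0.24 (95% interval -0.07 to 0.55, limma adjusted p = 0.402), Trichoplax Yap S81A over Yki S168A one of -0.04 (-0.35 to 0.27, adjusted p = 0.985), and Monosiga Yap-TBD over Trichoplax Yap S81A one of 0.28 (-0.03 to 0.59, adjusted p = 0.346). For sd these were 0.28 (0.02 to 0.54, limma adjusted p = 0.215), 0.19 (-0.07 to 0.45, adjusted p = 0.916) and 0.09 (-0.17 to 0.35, adjusted p = 0.79). For mats they were -0.30, -0.02 and -0.28 (limma adjusted p = 0.326, 0.995 and 0.383). Array weights, whose estimation stopped before it converged, gave calls of wts and mats between Monosiga Yap-TBD and Trichoplax Yap S81A. For wts the log2 fold change was 0.46 (limma adjusted p = 0.00493, range 0.00493 to 0.748), and for mats adjusted p was 0.0238. These weights also gave calls of sav, mats and sd between Monosiga Yap-TBD and Yki S168A (limma adjusted p = 0.0353, 0.00086 and 0.00446). The share of all tested genes called with array weights was not counted for these comparisons, and the shares above are without them. Against the control, array weights raised the calls over all tested genes from 2264 to 4014 with Monosiga Yap-TBD and from 1100 to 3033 with Yki S168A. A p that misses the threshold does not show that the constructs act alike on these genes.

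FPKM is scaled to length, so levels of the 6 genes can be ordered. With Monosiga Yap-TBD the order was sd (119 FPKM), yki (71.6), wts (50.6), mats (45.8), hpo (43.9) and sav (24.7), with wts, mats and hpo overlapping as neighbours. With Yki S168A it was yki (603), sd (97.5), mats (56.2), hpo (44.4), wts (42.9) and sav (21.3), where mats overlapped hpo and hpo overlapped wts. With Trichoplax Yap S81A it was sd (113), yki (75.3), mats (55.4), hpo (47.3), wts (42.2) and sav (22.6), and only hpo and wts overlapped. With Monosiga Yap it was sd (86.0), yki (79.8), mats (70.7), hpo (52.4), sav (21.3) and wts (18.2), and hpo and sav were the only neighbours apart. In the control it was yki (85.1), sd (78.3), mats (71.5), hpo (51.9), sav (23.6) and wts (17.8). There yki overlapped sd and sd overlapped mats, and the other neighbours were apart. In the control wts was thus the lowest of the 6 in every library, while in the 3 groups with ectopic proliferation sav was the lowest in every library.

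Within a library, the level of wts relative to yki was 0.651, 0.680 and 0.800 with Monosiga Yap-TBD and 0.527, 0.458 and 0.696 with Trichoplax Yap S81A, against 0.198, 0.199 and 0.233 in the control. With Yki S168A it was 0.0694, 0.0616 and 0.0905, below every control library although wts itself was higher, and yki there includes transgene fragments. Each of these groups was apart from the control (exact two-sided permutation test p = 0.1, the smallest that 3 against 3 libraries allow). The ratio of hpo to yki was 0.615 ± 0.0369 with Monosiga Yap-TBD and 0.629 ± 0.0222 with Trichoplax Yap S81A, against 0.612 ± 0.0529 in the control (SD, n = 3; exact permutation p = 1 and 0.7). The ratio of sd to yki was 1.66 ± 0.174 with Monosiga Yap-TBD and 1.5 ± 0.295 with Trichoplax Yap S81A, both above every control library, and 0.171 ± 0.0508 with Yki S168A, below every control library, against 0.925 ± 0.131 in the control (SD, n = 3; exact permutation p = 0.1 for each).

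**Figure D4:**
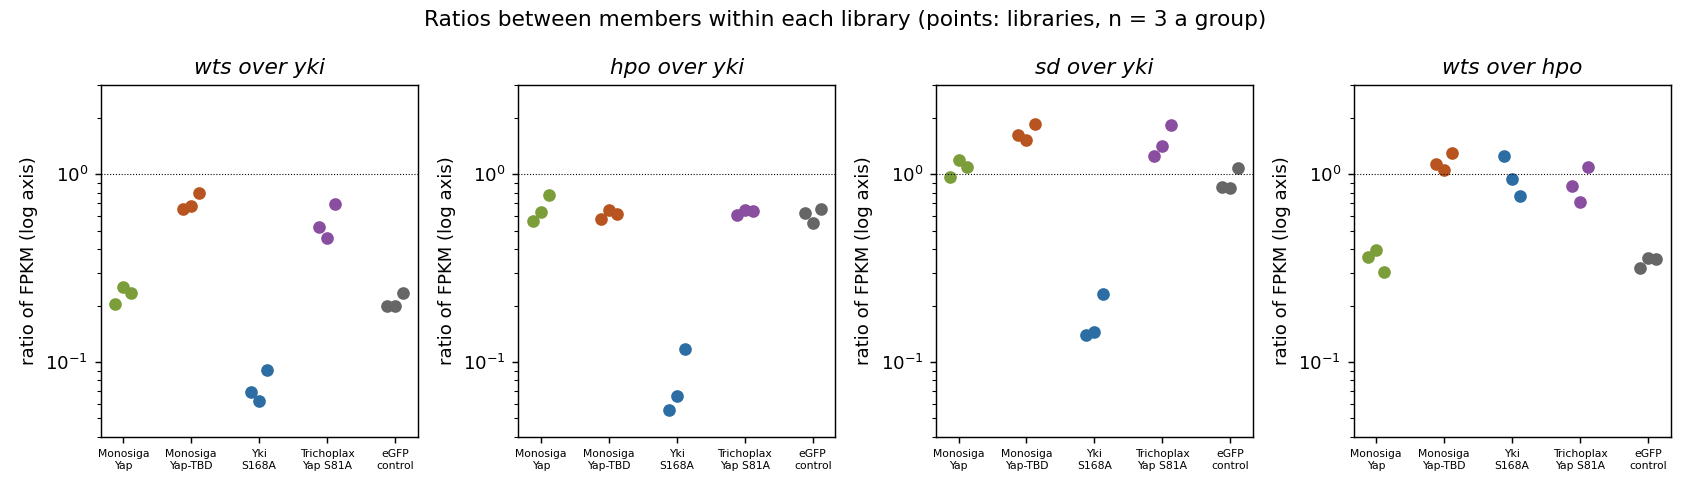
Ratios of FPKM of wts, hpo and sd to yki and of wts to hpo within each library (y axis, log scale) by group (x axis); points are libraries, 3 a group, and the dotted line is 1. The ratio of wts to hpo is 0.709 to 1.30 in the 3 groups with ectopic proliferation, against 0.318 to 0.358 in the control, and the ratio of hpo to yki is lower with Yki S168A alone.

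Over the 15 libraries, the gene whose log2(FPKM + 1) followed wts most closely was nahoda (Pearson r = 0.981), then emp, which encodes a CD36-family scavenger receptor (0.978), and RanGap, of nuclear transport (0.978); 95% of tested genes had an r of at most 0.801. All genes were measured in the same libraries, with the same groups and depths, so these are descriptions of a common profile. The mean of emp was 263 FPKM with Monosiga Yap-TBD, 241 with Yki S168A and 217 with Trichoplax Yap S81A, against 95.9 in the control. For sd the closest were Cad87A, a cadherin gene (0.941), beat-Ic (0.928) and vfl (0.912), where 95% of tested genes had an r of at most 0.752. Vfl is the zinc finger factor also called Zelda, and its mean was 43.2, 33.5 and 39.6 FPKM with the same constructs, against 21.8 in the control. Levels of beat-Ic were low, with means of 0.0951 FPKM in the control and 0.672 FPKM with Monosiga Yap. The closest to mats were Neos (0.944), Rsf1 (0.935) and lft (0.917), the last a gene of the Fat and Dachsous branch of the same pathway. RagC, VhaSFD and Paf-AHalpha (0.925, 0.919 and 0.915) were closest to hpo, and CycK, PyK and l(3)neo43 (0.958, 0.957 and 0.943) to sav. For yki the closest was mthl8 (0.984), with a mean of 5.64 FPKM with Yki S168A and listed at 0 in the control, then obst-B (0.865) and rgn (0.807), where 95% of tested genes had an r of at most 0.428. The means of mthl8 with Monosiga Yap-TBD and Trichoplax Yap S81A were 0.0188 and 0.00868 FPKM, so it passed the filter on low values through Yki S168A. In the 12 libraries without Yki S168A the closest to yki were scyl, Tfb1 and cyc (0.895, 0.888 and 0.881). Among the 6 genes themselves, r was 0.874 between wts and sd, 0.840 between hpo and mats and -0.796 between wts and mats.

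The rest of the pathway was taken from a list of 60 genes by role, of which 58 were tested. With Monosiga Yap-TBD, 17 rose and 6 fell (12.6% and 12% of all tested genes), with a median log2 fold change of 0.16, against 0.014 over all tested genes. With Yki S168A 14 rose and 3 fell (5.42% and 6.52% of all tested genes; median 0.17, against 0.001), and with Trichoplax Yap S81A 14 rose and 3 fell (6.09% and 6.09%; median 0.16, against 0.04). With Monosiga Yap 1 rose, the gene ex, and 0 fell (0.228% of all tested genes were called higher; median 0.06, against -0.022), and that call ended without any 1 of the 3 Monosiga Yap or 3 control libraries. The Trichoplax Yap S81A count of 17 was 12 without its replicate 1, the library with fat body transcripts, 10 without its replicate 3, 10 without control replicate 1 and 11 without control replicate 2. Over all tested genes, the calls in that comparison were 1122, with 882 without Trichoplax Yap S81A replicate 1 and 745 without its replicate 3. With any 1 library left out they ranged from 745 to 1241. Between Monosiga Yap-TBD and Monosiga Yap, 17 rose and 6 fell (14.3% and 12.2% of all tested genes); this count of 23 was 15 with only these groups in the fit. With array weights, 35 of the 58 were called with Monosiga Yap-TBD and 35 with Yki S168A against the control. Array weights also raised the calls over all 9213 tested genes, from 2264 to 4014 and from 1100 to 3033.

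The sets below are small, and their counts stand beside shares over all tested genes. These were 12.6%, 5.42% and 6.09% called higher with Monosiga Yap-TBD, Yki S168A and Trichoplax Yap S81A, and 12%, 6.52% and 6.09% lower. By role, the 9 tested genes of the Fat and Dachsous branch, the cadherins and their effectors that act on Wts, gave 5 higher and 1 lower with Monosiga Yap-TBD, 4 and 1 with Yki S168A and 5 and 1 with Trichoplax Yap S81A. The lower one was lft in each, at 129, 151 and 162 FPKM, against 229 FPKM in the control (limma adjusted p = 0.000952, 0.0156 and 0.0445). The 10 genes known to respond to Yki gave 6, 6 and 5 higher and 0 lower. Of these, vn, an EGF receptor ligand gene, was at 18.5 ± 1.71 FPKM with Monosiga Yap-TBD, 4.62 ± 0.244 with Yki S168A and 6.89 ± 2.99 with Trichoplax Yap S81A, against 1.27 ± 0.152 in the control (limma adjusted p = 2.51e-07, 0.00147 and 0.000136). The Wnt ligand gene wg was at 12.1 ± 4.67 FPKM with Monosiga Yap-TBD, 66.8 ± 26.9 with Yki S168A and 121 ± 49.9 with Trichoplax Yap S81A, against 3.92 ± 1.4 in the control (limma adjusted p = 0.0123, 4.2e-05 and 3.04e-06). Of 14 upstream and apical regulators, 3 rose and 2 fell with Monosiga Yap-TBD, 3 rose and 0 fell with Yki S168A, and 2 rose and 1 fell with Trichoplax Yap S81A. In each of the 3 comparisons the rises include ex and kibra (listed as CG33967), whose proteins promote Wts activity and whose genes are known targets of Yki; ex was at 309, 292 and 271 FPKM, against 54.5 FPKM in the control. The zyxin gene (listed as Zyx102EF) fell with Monosiga Yap-TBD and with Trichoplax Yap S81A. Of 8 tested STRIPAK and other kinase genes, 1 rose and 1 fell with Monosiga Yap-TBD. With Yki S168A and with Trichoplax Yap S81A, 0 rose and 1 fell in each. The fall in each was Sik2 (listed as CG4290), which encodes a salt-inducible kinase that acts on Sav in flies. Its level was 3.58, 5.51 and 4.47 FPKM, against 12.4 FPKM in the control (limma adjusted p = 5.89e-05, 0.00358 and 0.000684). Of 13 Yki regulators and cofactors, 1 rose and 2 fell, 0 rose and 1 fell, and 1 rose and 0 fell. Over all tested genes, 24.6%, 11.9% and 12.2% were called in either direction. The fall with Yki S168A was Ack, a tyrosine kinase gene (24.8 ± 2.95 against 35.1 ± 0.97 FPKM, limma adjusted p = 0.0407). Ack was also called lower with Monosiga Yap-TBD (25.7 ± 1.67 FPKM, limma adjusted p = 0.0393). Of 4 tested partners of Sd or other DNA-binding partners of Yki, 1 rose and 0 fell with each of the 3 constructs, which was Tgi with Monosiga Yap-TBD and hth with the others, both named after their values were seen; vg, the gene of a wing partner of Sd, was below the filter on low values.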

How the data were processed

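Values of 15 libraries in 5 groups were used, each a pool of surgically isolated GFP-positive eye disc tissue. The submitters' processing notes name TopHat 1.0.14, Cuffdiff 1.0.2, Cufflinks, CASAVA 1.7.0 and the build dm3; their roles, the annotation and strand are not given in the sources used here. The authors deposited FPKM values and, in a second table, a natural log ratio to the control for each construct. That deposited table also holds a p-value per gene, an adjusted value that exceeds 1 in places and was treated as a score, and a mean level that the authors gave on a log2 scale. Coordinates are those of that table.

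Depth was estimated from the smallest FPKM steps of genes with 1 annotated transcript (length correction 202 bases, 197 to 251 genes a library). The 9213 genes that reached an FPKM of 1 in 3 or more libraries were fitted on log2(FPKM + 1) in limma 3.58.1 (R 4.3.3) with all 5 groups, a variance trend and robust moderation (10 residual degrees of freedom). The 10 contrasts were two-sided, p was adjusted by Benjamini-Hochberg over all tested genes, and adjusted p under 0.05 was called. The procedure was tested on simulated data. Fold changes are ratios of mean FPKM; log2 fold changes include the pseudocount of 1. Other values used python 3.11.15, numpy 2.4.6, scipy 1.17.1, pandas 2.3.3 and matplotlib 3.10.9. The labels say only that extraction was done in triplicate for each genotype, so p-values measure the spread between these samples, which may be technical.

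The 6 genes and the gene lists were chosen with earlier results of these data known. All 6 genes were named in every comparison. From the pathway list, up to 3 called genes in each direction whose libraries did not overlap could be named, with the others given as counts (Tgi and hth are exceptions); for each member the 3 genes most correlated with it were named, leaving out CG and CR numbers. Alternatives were a pseudocount of 0.1, no filter, scaling to the same 75th percentile, only the compared groups, array weights, the replicate number as a block, no trend or robust moderation, and each library left out. Promoter and protein sequences were not used here.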

Additional observations from a re-analysis of the deposited data

How the results depend on the processing

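Over 22 alternatives for each of 60 log2 fold changes of the 6 genes, 1273 values kept their direction and their side of the threshold, 6 lost a call, 16 gained one and 25 changed sign; no value that was called changed sign. The rises of wts with Monosiga Yap-TBD, Yki S168A and Trichoplax Yap S81A kept their calls in all. Calls were lost for sd with Trichoplax Yap S81A (0.51 with only the compared groups; 0.37 to 0.59 with 1 library left out) and for mats (-0.61, compared groups) and sd (0.42 to 0.53, libraries left out) with Monosiga Yap-TBD over Monosiga Yap. Members called with Trichoplax Yap S81A were then 1 (compared groups) and 1 to 2 (libraries left out), and with Yki S168A 2 to 3. Calls over all 9213 tested genes also moved with libraries left out, from 745 to 1241 with Trichoplax Yap S81A and from 723 to 1216 with Yki S168A. With 1 library left out, sd with Yki S168A ranged from 0.27 to 0.39 and sd with Trichoplax Yap S81A over Monosiga Yap from 0.23 to 0.46, each with 1 call gained.

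Calls gained by scaling to the 75th percentile were hpo with Monosiga Yap-TBD over the control (-0.32) and over Monosiga Yap (-0.32), and mats with Trichoplax Yap S81A over the control (-0.44) and over Monosiga Yap (-0.41). Scaling moved the median of all genes by at most -0.081. Array weights, whose estimation stopped before it converged, gave calls of hpo (-0.23) with Monosiga Yap-TBD, mats (-0.28) and sd (0.40) with Yki S168A (4 members in all), mats (-0.39) with Trichoplax Yap S81A, and sd (0.30) with Trichoplax Yap S81A over Monosiga Yap. Between constructs they gave sav (0.22), mats (-0.47) and sd (0.29) for Monosiga Yap-TBD over Yki S168A, and wts (0.46) and mats (-0.36) for Monosiga Yap-TBD over Trichoplax Yap S81A. The share of all tested genes called with array weights was not counted in these comparisons. The other pathway genes called were 35 with Monosiga Yap-TBD and 35 with Yki S168A by array weights. By that setting, 4014 and 3033 of all 9213 tested genes were called. For Monosiga Yap-TBD over Monosiga Yap the count of other pathway genes was 15 with only the compared groups. With Monosiga Yap the count was 0 with scaling, 0 with the compared groups and 0 to 1 with libraries left out; with Trichoplax Yap S81A it was 10 to 20 with libraries left out. For these the cause was not tested.

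Signs changed only for differences that were not called: sav with Monosiga Yap-TBD (-0.03, scaling), sav with Yki S168A over Monosiga Yap (-0.02, scaling) and yki with Monosiga Yap-TBD over Trichoplax Yap S81A (0.03, array weights). With 1 library left out, log2 fold changes that changed sign were -0.14 to 0.10 for hpo, -0.32 to 0.01 for sav, -0.18 to 0.05 for mats (Monosiga Yap over the control); -0.01 to 0.16 for sav (Monosiga Yap-TBD over the control); -0.16 to 0.18 for sav (Yki S168A over Monosiga Yap); -0.23 to 0.01 for hpo, -0.07 to 0.26 for sav (Trichoplax Yap S81A over Monosiga Yap); -0.10 to 0.05 for hpo (Monosiga Yap-TBD over Yki S168A); -0.01 to 0.17 for sav, -0.19 to 0.12 for wts, -0.12 to 0.06 for mats (Trichoplax Yap S81A over Yki S168A).

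With the replicate number as a block no call of the 6 genes changed (wts 1.46, 1.22 and 1.18 with Monosiga Yap-TBD, Yki S168A and Trichoplax Yap S81A). Deviations of same-numbered libraries from their group means correlated above 0.1 in 6 of 30 pairs (median -0.0398, against 0.0232 for other pairs), so the numbers were not taken as pairs. Same-numbered pairs ranged from -0.401 to 0.321 and other pairs from -0.415 to 0.442. Some libraries of different groups thus shared deviations, whose source was not tested and which the fit does not include. Over all tested genes, calls with Monosiga Yap were 30, and 79 with array weights, 16 with the compared groups and 16 to 30 with libraries left out. With Monosiga Yap-TBD they were 2264, and 4014 with array weights. With Yki S168A they were 1100, 3033 with array weights and 723 without control replicate 2; with Trichoplax Yap S81A 1122, 2156 with array weights and 745 without its replicate 3.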
